A study of Mus musculus with 11 samples.

Results

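The nuclear receptors PXR (gene Nr1i2) and CAR (gene Nr1i3), the electron donor POR (gene Por) and 7 cytochrome P450 genes of the Cyp2b, Cyp2c and Cyp3a subfamilies were followed in liver mRNA of FSH-treated and saline-treated mice. The 10 genes (Nr1i2, Nr1i3, Por, Cyp2b9, Cyp2b10, Cyp2b13, Cyp2c29, Cyp3a11, Cyp3a13 and Cyp3a41a) were chosen by symbol for their function from 36788 gene identifiers. These genes and the gene lists below were chosen with earlier results of these data known, so their counts beside all genes are a description only. All 10 were among the 12733 genes that averaged 0.5 CPM or more and were compared (CPM is the reads of a gene scaled to a library total of 1000000). Every animal was a wild-type C57BL/6 female labelled as older than 12 weeks, ovariectomized (OVX) and fed a high-fat diet (HFD). The methods of the paper instead describe its mice as being of a mixed genetic background. One group of 5 mice (numbers 1, 2, 3, 4 and 6) received follicle-stimulating hormone (FSH) and the control group of 6 mice (numbers 1 to 6) received saline, so that controls share the ovariectomy and the diet. Animals with intact ovaries or on a standard diet were not analysed here. The comparison asks what FSH changes in the liver when the ovaries are absent. Per the labels, whole liver was digested with papain before RNA extraction, and each library is one sample of its group. The labels do not say outright that each library is a separate mouse, so p-values measure the spread between these samples.

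CAR and PXR are ligand-controlled transcription factors that sense drugs, bile acids and other lipophilic compounds in hepatocytes. Each pairs with the retinoid X receptor (RXR) and binds repeats of a short hexamer near its target genes. Cyp2b10 is the standard mouse read-out of CAR activity and Cyp3a11 that of PXR, with considerable crosstalk between the receptors. POR is the flavoprotein that hands electrons from NADPH to all microsomal P450 enzymes. Cyp2b9, Cyp2b13 and Cyp3a41a are also known as P450 genes with far higher mRNA in female than in male mouse liver, a difference set by the pattern of growth hormone release.

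The stretches upstream of the Cyp2b and Cyp3a members are shown because genes with near-identical upstream DNA and genes with diverged upstream DNA are set side by side in the mRNA values. They are RefSeq promoter sequences on GRCm38.p6, read 5′ to 3′ on the strand of the gene, and they begin 250 bases before the RefSeq start. The Cyp2b stretches end 39 bases before that start and the Cyp3a stretches 111 bases before it, because the GENCODE gene model begins further upstream for Cyp2b10 and Cyp3a11. Capitals mark the hexamers AGGTCA and TGAACT, which were searched on both strands as letters that CAR, PXR and other nuclear receptors can bind. The places are chr7:25897408-25897619 (plus strand) for Cyp2b10, chr7:26173159-26173370 (plus) for Cyp2b9, chr7:26061245-26061456 (plus) for Cyp2b13, chr5:145879965-145880104 (minus) for Cyp3a11 and chr5:145720247-145720386 (minus) for Cyp3a41a.
Cyp2b10: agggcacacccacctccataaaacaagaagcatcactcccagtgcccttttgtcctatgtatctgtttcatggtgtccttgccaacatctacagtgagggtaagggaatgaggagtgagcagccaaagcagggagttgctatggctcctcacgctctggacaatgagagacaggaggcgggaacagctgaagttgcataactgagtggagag
Cyp2b9: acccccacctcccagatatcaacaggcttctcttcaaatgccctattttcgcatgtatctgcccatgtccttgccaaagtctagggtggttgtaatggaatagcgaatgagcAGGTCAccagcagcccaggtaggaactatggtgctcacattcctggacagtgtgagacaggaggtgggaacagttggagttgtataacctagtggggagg
Cyp2b13: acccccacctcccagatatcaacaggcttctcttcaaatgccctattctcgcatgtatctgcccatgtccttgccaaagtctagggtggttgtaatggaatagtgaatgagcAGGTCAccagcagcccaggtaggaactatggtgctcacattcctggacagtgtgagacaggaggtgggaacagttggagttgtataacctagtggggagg
Cyp3a11: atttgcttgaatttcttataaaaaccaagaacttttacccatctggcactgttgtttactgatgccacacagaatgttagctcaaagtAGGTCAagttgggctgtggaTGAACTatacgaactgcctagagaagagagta
Cyp3a41a: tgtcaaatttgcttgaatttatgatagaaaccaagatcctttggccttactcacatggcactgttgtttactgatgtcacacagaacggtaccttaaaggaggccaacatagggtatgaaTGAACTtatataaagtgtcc

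The Cyp2b9 and Cyp2b13 stretches were identical at 210 of 212 bases and differed by T48C and C104T (Cyp2b9 base, position from 1 at the 5′ end of the stretch shown, Cyp2b13 base). Cyp2b10 shared 70.9% of aligned positions with either of them. Cyp3a11 and Cyp3a41a shared 69.3%. In the full windows of 250 bases before the RefSeq start, AGGTCA was found in Cyp2b9 and Cyp2b13 (positions -138 to -133 from the start), Cyp2c29 (-154 to -149) and Cyp3a11 (-162 to -157). TGAACT was found in Cyp3a11 (-142 to -137) and Cyp3a41a (-130 to -125). One or other hexamer was thus in the windows of 5 of 10 members, and in 24.2% of the 32851 windows of this length in the table (AGGTCA in 14.0% and TGAACT in 11.8%, some windows holding both). The D-box letters TTATGTAA and TTACGTAA, which PAR bZIP factors bind, were in 0 of 10 member windows and in 0.932% of all windows. The matches are exact letters in a short window. Sites with other letters or further upstream were not searched, so a window without a match, as for Cyp2b10, does not show that receptor sites are absent. For Por and Cyp2c29 the RefSeq start lies inside the GENCODE gene model, which begins further upstream.

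The libraries held between 10801891 and 19909327 reads on genes, and no pair within a group was as alike as sampling noise alone would make it. Beside the members, limma called 1350 of 12733 genes at an adjusted p under 0.05, which is 10.6% (6.19% higher and 4.41% lower with FSH), and 1.83% of genes also had an absolute log2 fold change over 1 (0.887% higher and 0.942% lower). The median log2 fold change of all genes tested was 0.02. Of 8 hepatocyte markers, 0 were called higher and 1 lower (Hnf4a), and log2 fold changes were below 0 for 5 of 8 (median -0.10). Of the other marker lists, called genes numbered 0 of 6 for Kupffer cells, 1 of 6 for endothelium (Lyve1, lower), 1 of 6 for stellate cells (Ecm1, lower; 0 in edgeR), 1 of 5 for cholangiocytes (Krt7, higher), 0 of 2 tested for intestinal epithelium, 0 of 1 tested for pancreatic acinar cells and 0 of 5 for erythroid cells. The summed Kupffer marker level lay between 93.3 and 257 CPM with FSH and between 153 and 303 CPM with saline, and log2 fold changes were below 0 for 6 of 6 of these markers (median -0.42), for 6 of 6 stellate markers (median -0.27) and for 5 of 6 endothelial markers (median -0.22; 3 of 6 at an unadjusted p under 0.05). Of the lists with 0 calls, 2 of 6 Kupffer markers, 1 of 2 intestinal and 0 of 6 acinar and erythroid markers had an unadjusted p under 0.05 in limma, and on recovered reads DESeq2 called 1 Kupffer marker while edgeR and voom called 0. Of the adipocyte markers (Adipoq, Plin1, Cfd and Lep), 0 reached the minimum, and their summed level stayed under 0.525 CPM in every library. Among intestinal markers, Vil1, Cdh17 and Muc2 did not reach it either. The part of these shifts in the results below was not tested.

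Of the 10 members, 1 was higher (Por) and 2 were lower (Cyp2b10 and Cyp3a11) with FSH at an adjusted p under 0.05, against 10.6% of all genes tested. Cyp2b10 alone among them also passed the fold threshold. The mRNAs of the receptors themselves, of the female-predominant P450 genes and of Cyp2c29 and Cyp3a13 were not called. The median log2 fold change of the members was -0.21, with 8 of 10 values below 0. In bulk liver, fewer cells of a type and less RNA per cell cannot be told apart.

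**Figure D1:**
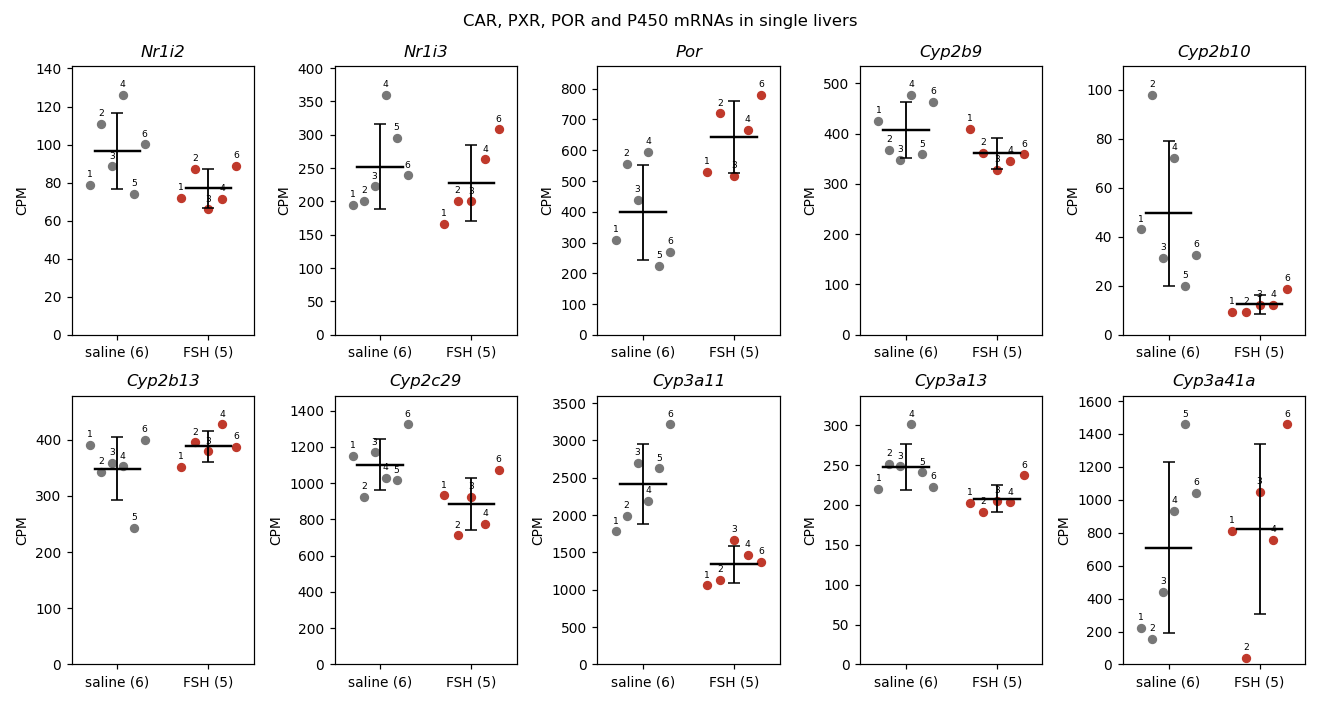
Level of each of the 10 mRNAs in single livers, in CPM on axes that start at 0. Points are libraries numbered as in the labels (grey, 6 saline; red, 5 FSH), and bars give the mean and SD. Cyp2b10 and Cyp3a11 are the panels in which the groups do not overlap.

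Nr1i2 (ENSMUSG00000022809, chr16:38248323-38294824, minus strand), which encodes PXR, measured 72.2, 87.4, 66.0, 71.4 and 88.8 CPM in FSH-treated mice 1, 2, 3, 4 and 6. In saline-treated mice it ran from 74.2 over a median of 94.4 to 126 CPM. The groups overlapped, with saline mice 1, 3 and 5 inside the FSH range and saline mouse 4 highest. The log2 fold change (FSH minus saline, on the log2(CPM + 0.5) scale, as throughout) was -0.31 ± 0.13 (SE), with a 95% interval of -0.59 to -0.02. It was not called (limma, adjusted p = 0.169), and the exact permutation test over the 462 ways of splitting the libraries into 5 and 6 gave p = 0.0801.

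Nr1i3 (ENSMUSG00000005677, chr1:171213970-171220701, plus strand), which encodes CAR, measured 167, 201.2, 200.04, 263 and 308 CPM in FSH-treated mice 1, 2, 3, 4 and 6. The saline values ran from 195 over a median of 231 to 360.1 CPM. Both groups spread almost alike, with a coefficient of variation of 24.9% for FSH and 25.4% for saline. The log2 fold change was -0.15 ± 0.18 (SE; 95% interval -0.52 to 0.23; limma, adjusted p = 0.664; exact permutation p = 0.504). Nr1i3 overlaps Tomm40l on the opposite strand, and 53.2% of the 100-base windows of its annotated transcripts also occur in those of Tomm40l. How the authors' counting treated strand is not given in the sources used here. Tomm40l itself, looked up because of the overlap, averaged 11.4 CPM (SD 2.19, n = 5) in FSH livers and 8.83 CPM (SD 2.50, n = 6) in saline livers. The ratio of the receptor mRNAs differed by less than the spread. Nr1i2 over Nr1i3 averaged -1.53 ± 0.32 with FSH and -1.37 ± 0.37 with saline on the log2 scale (SD; exact permutation p = 0.463, 0.540 after adjustment over the 7 ratios compared).

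The genes that followed each receptor most closely from liver to liver were named after subtracting the group means, as a description over 11 libraries that share their depth and scaling. For Nr1i2 they were Dcaf11 (Pearson r = 0.95), Fam214b (r = 0.93) and Etnk2 (r = 0.93). For Nr1i3 they were Zfp511 (r = 0.95), Znrf1 (r = 0.94) and Cdc25b (r = 0.93). No member was among them. Between members, Nr1i2 had its highest r with Por (r = 0.81, Spearman's rho = 0.80). Nr1i3 had its highest r with Cyp3a13 (r = 0.70, rho = 0.39), but by rho it was closer to Cyp3a41a (rho = 0.52) and Cyp3a11 (rho = 0.42).

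Por (ENSMUSG00000005514, chr5:135670033-135735326, plus strand) measured 531, 720.5, 516, 666 and 781 CPM in FSH-treated mice 1, 2, 3, 4 and 6. In saline-treated mice it ran from 225 over a median of 374 to 595 CPM. Saline mice 2 and 4 lay inside the FSH range and the other 4 below it. Por rose 1.70-fold with FSH, a log2 fold change of 0.76 ± 0.23 (SE; 95% interval 0.27 to 1.25; limma, adjusted p = 0.0457; exact permutation p = 0.0303). The call sat at the threshold. It was lost in 15 of 23 alternative settings. Over the 23, the adjusted p ranged from 0.0180 to 0.0929 and the log2 fold change from 0.62 to 0.90. Leaving out any one of FSH mice 1, 2, 3, 4 and 6 or saline mice 1, 3, 5 and 6 was enough to lose it.

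POR works beside other redox proteins of the endoplasmic reticulum. Of the 7 electron donors and partners tested, Por included, 3 were called higher (Por, Cyb5r3 and Pgrmc2) and 0 lower, against 10.6% of all genes, with a list median of 0.41. DESeq2 also called 3, and edgeR and voom 2 each. Cyb5r3, the reductase that feeds cytochrome b5, measured 1102, 977, 829, 961 and 803 CPM with FSH and between 460.0 and 613 CPM with saline, without overlap. Its log2 fold change was 0.75 ± 0.11 (SE; limma, adjusted p = 0.000463). Pgrmc2, a heme-binding membrane protein, rose by 0.41 ± 0.11 on the log2 scale (adjusted p = 0.0282). Alas1, the rate-limiting enzyme of heme synthesis and itself a receptor target, was not called (0.74 ± 0.30, adjusted p = 0.135) and was picked out after its values had been seen.

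Cyp2b10 (ENSMUSG00000030483, chr7:25897620-25926624, plus strand) measured 9.49, 9.37, 12.3, 12.3 and 18.8 CPM in FSH-treated mice 1, 2, 3, 4 and 6, which rest on 127 to 218 reads each. In saline-treated mice it ran from 20.1 over a median of 37.9 to 98.0 CPM. The groups did not overlap, although FSH mouse 6 and saline mouse 5 came close to each other. Cyp2b10 fell by 1.79 on the log2 scale (SE 0.33; 95% interval -2.49 to -1.10), or 3.47-fold (limma, adjusted p = 0.00285; exact permutation p = 0.00433). Groups without overlap were seen for 6.67% of all genes tested. Its spread was the widest of the called members, with a coefficient of variation of 30.9% with FSH and 59.7% with saline.

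Cyp2b9 and Cyp2b13, the female-predominant neighbours of Cyp2b10 on chromosome 7, had other values. Cyp2b9 (ENSMUSG00000040660, chr7:26173411-26210661, plus strand) measured 409, 362, 328, 346 and 359 CPM in FSH-treated mice 1, 2, 3, 4 and 6, and 348 to 477 CPM (median 396) with saline. Cyp2b13 (ENSMUSG00000040583, chr7:26061497-26096197, plus strand) measured 352, 395, 379, 428 and 387 CPM, and 243 to 401 CPM (median 356) with saline. Both genes overlapped between the groups and had coefficients of variation of 7.03% to 16.2% within them. Their log2 fold changes were -0.17 ± 0.10 (95% interval -0.38 to 0.05; adjusted p = 0.337) and 0.17 ± 0.12 (95% interval -0.07 to 0.42; adjusted p = 0.394) in limma.

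The difference within the subfamily was tested directly on ratios, which do not depend on the scaling of a library apart from the added 0.5 CPM. These 7 ratios were chosen after the values had been seen. Cyp2b10 over Cyp2b9 was lower with FSH by a log2 difference of -1.63 (exact permutation p = 0.00433, adjusted p = 0.0152). The log2 ratio ran from -5.36 to -4.21 in the 5 FSH livers and from -4.13 to -1.90 in the 6 saline livers, without overlap. Cyp2b10 over Cyp2b13 differed by -1.97 (exact permutation p = 0.00216, the smallest this design can give; adjusted p = 0.0152). Cyp2b9 over Cyp2b13, the pair with near-identical upstream stretches, differed by -0.34 with overlapping groups (exact permutation p = 0.0325, adjusted p = 0.0568). Of the 5 listed Cyp2b genes, Cyp2b19 and Cyp2b23 were at 0 reads in all libraries. Cyp2b10 shares 0 of its 100-base transcript windows with another gene, Cyp2b9 1.18% and Cyp2b13 9.29% (with Cyp2b9 and the unnamed gene model Gm45225).

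**Figure D2:**
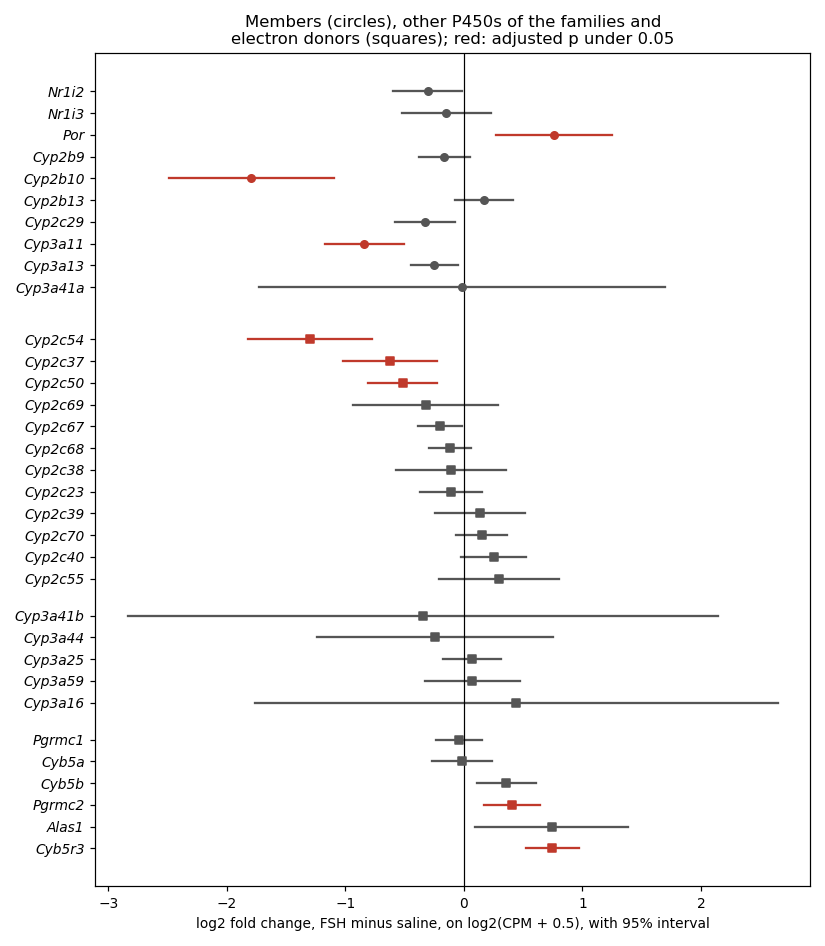
Log2 fold change (FSH minus saline, on log2(CPM + 0.5)) with its 95% interval for the 10 members (circles), the other tested Cyp2c and Cyp3a genes and the electron donors and partners (squares), with red for an adjusted p under 0.05. Cyp2b10 (-1.79) and Cyp2c54 (-1.30) lie furthest to the left, and Cyp3a41a, Cyp3a41b and Cyp3a16 have the widest intervals.

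Cyp2c29 (ENSMUSG00000003053, chr19:39269405-39330713, plus strand), an abundant epoxygenase that CAR and PXR can raise, measured 933, 713, 926, 777 and 1073 CPM in FSH-treated mice 1, 2, 3, 4 and 6. The saline values ran from 924 over a median of 1091 to 1325 CPM. FSH mice 1, 3 and 6 lay inside the saline range and FSH mice 2 and 4 below it. The log2 fold change was -0.32 ± 0.12 (SE; 95% interval -0.58 to -0.07), which was not called (limma, adjusted p = 0.0994; exact permutation p = 0.0346). It was called in 3 of 23 alternatives, among them the fit without FSH mouse 6 (log2 fold change -0.40, adjusted p = 0.0403).

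Of 13 Cyp2c genes tested, 0 were called higher and 3 lower, against 4.41% of all genes called lower, with a median log2 fold change of -0.12 (3 also in DESeq2 and voom, and 2 in edgeR, where Cyp2c37 had an adjusted p of 0.0591). Cyp2c54 measured 63.6, 176, 76.3, 66.4 and 123 CPM in FSH-treated mice 1, 2, 3, 4 and 6 and between 188 and 355 CPM with saline, without overlap. Cyp2c54 fell by 1.30 on the log2 scale (SE 0.25; limma, adjusted p = 0.00372; exact permutation p = 0.00216). Its relatives Cyp2c50 (-0.52 ± 0.14, adjusted p = 0.0272) and Cyp2c37 (-0.63 ± 0.19, adjusted p = 0.0436) also fell, with overlapping groups. These 3 genes are arachidonic acid epoxygenases of one cluster, and 4.70% to 7.59% of the 100-base windows of each also occur in another of them. Cyp2c55, which CAR and PXR activators raise strongly, averaged 3.67 CPM (SD 0.97, n = 5) in FSH livers and 2.98 CPM (SD 1.07, n = 6) in saline livers. Cyp2c55 was picked out after its values had been seen.

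Cyp3a11 (ENSMUSG00000056035, chr5:145854426-145879964, minus strand), the main PXR target, measured 1058, 1134, 1673, 1469 and 1379 CPM in FSH-treated mice 1, 2, 3, 4 and 6. In saline-treated mice it ran from 1782 over a median of 2409 to 3216 CPM. The groups did not overlap. Cyp3a11 fell by 0.84 on the log2 scale (SE 0.16; 95% interval -1.17 to -0.50), or 1.79-fold (limma, adjusted p = 0.00338; exact permutation p = 0.00433). It shares 0.142% of its 100-base transcript windows with other genes.

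Cyp3a13 (ENSMUSG00000029727, chr5:137892932-137921619, minus strand), a member also known from intestine and set apart from the rest of the Cyp3a cluster, measured 203, 191, 205, 203 and 237 CPM in FSH-treated mice 1, 2, 3, 4 and 6. The saline values ran from 220.4 over a median of 245 to 301 CPM. FSH mice 1, 2, 3 and 4 lay below every saline value and FSH mouse 6 lay inside their range. The log2 fold change was -0.25 ± 0.09 (SE; 95% interval -0.44 to -0.05; limma, adjusted p = 0.102; exact permutation p = 0.0173). Cyp3a11 over Cyp3a13 was lower with FSH by a log2 difference of -0.59, which did not pass after adjustment over the 7 ratios (exact permutation p = 0.0281, adjusted p = 0.0568).

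Cyp3a41a (ENSMUSG00000075551, chr5:145694049-145720136, minus strand), a female-specific gene, was the most variable member, with 35.2-fold between the lowest and the highest liver. It measured 813, 41.5, 1049.8, 755 and 1458 CPM in FSH-treated mice 1, 2, 3, 4 and 6, and 154 to 1458 CPM (median 688) with saline. FSH mouse 2 lay far below the rest of its group, and saline mice 1 and 2 were low as well. The log2 fold change was -0.01 ± 0.80 (SE; 95% interval -1.72 to 1.70; limma, adjusted p = 0.995). The mean of the raw CPM values was higher with FSH (824 against 709 CPM), so that the sign depends on the scale. Without FSH mouse 2 the log2 fold change was 0.90 (adjusted p = 0.334). The gene cannot be separated well from Cyp3a41b, whose reference transcript is 99.7% identical, and 90.8% of its 100-base windows also occur elsewhere. Summing both genes gave a log2 fold change of -0.03 (adjusted p = 0.989), an alternative chosen after seeing the data.

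The swings of Cyp3a41a went with those of other Cyp3a genes within the groups. Over the 11 libraries, with group means subtracted, it correlated with Cyp3a16 at r = 0.96 (rho = 0.85), with Cyp3a41b at r = 0.91 (rho = 0.78) and with Cyp3a44 at r = 0.74 (rho = 0.74), against r = 0.57 with Cyp3a11 and r = 0.39 with Cyp3a13 and Cyp3a25. For Cyp3a41b the value says little, because its reads cannot be separated well from those of Cyp3a41a. Cyp3a16, Cyp3a41b, Cyp3a44 and Cyp3a25, named after their values had been seen, were not called between the groups. Cyp3a16, a fetal and female form, measured 0.148 CPM in FSH mouse 2 and 12.5 to 28.0 CPM in the other 4 FSH livers, and Cyp3a41b was at 0 reads in FSH mouse 2, which allows up to 0.221 CPM (counting error only). Saline mouse 2 also had 0 reads of Cyp3a41b, which allows up to 0.218 CPM, and 0.873 CPM of Cyp3a16. Sult2a1 and Cyp2d9, genes with a sex bias that were also picked out after their values had been seen, stood apart in FSH mouse 2: Sult2a1, a female-predominant sulfotransferase, measured 3.47 CPM there and 209 to 518 CPM in the other FSH livers, and Cyp2d9, a male-predominant P450, measured 122 CPM there and 29.4 to 36.6 CPM in the others. In this liver Cyp2b9 (362 CPM) and Cyp2b13 (395 CPM) lay within the range of their group. Of 10 female-biased P450 genes tested, 1 was called higher (Cyp17a1, 0.75 ± 0.17, adjusted p = 0.0121) and 0 lower, a share near the 10.6% of all genes called. Of 3 male-biased P450 genes 0 were called by limma, edgeR, DESeq2 or voom (0 at an unadjusted p under 0.05 in limma).

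**Figure D3:**
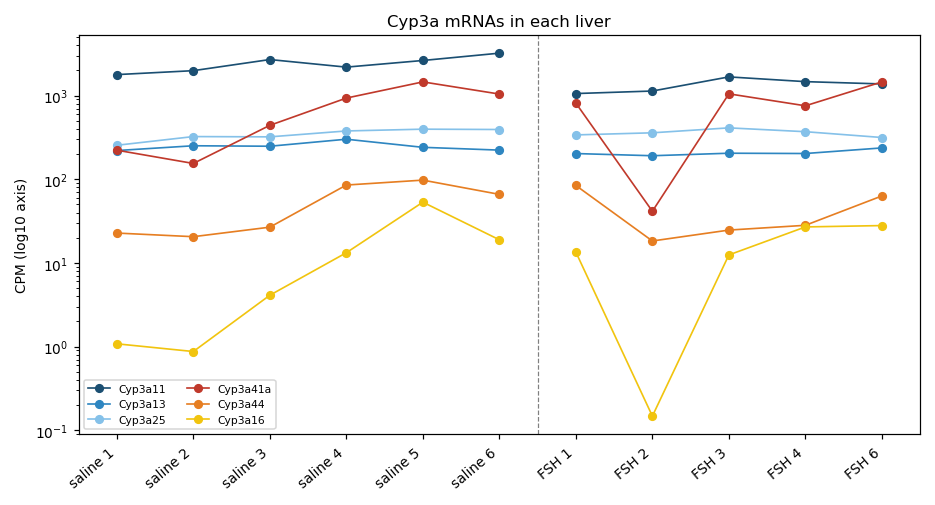
Level of 6 Cyp3a mRNAs in each of the 11 livers, in CPM on a log10 axis; lines join the values of one gene within a group and stand for no order of the mice. Cyp3a41a and Cyp3a16 drop together in FSH mouse 2 (to 41.5 and 0.148 CPM), while Cyp3a11 and Cyp3a25 do not. Cyp3a13 is only slightly lower there (191 CPM).

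Per length of the reference transcript, Cyp3a11 was the highest member in saline livers at 1031 ± 226 CPM per kb (SD, n = 6), above Cyp2c29 at 619 ± 79.6 CPM per kb in 6 of 6 livers without overlap. Next came Cyp3a41a at 344 ± 251, Cyp2b9 at 217 ± 29.9, Cyp2b13 at 186 ± 30.0, Nr1i3 at 178 ± 45.3 and Por at 151 ± 58.7 CPM per kb, and each of these overlapped with its neighbour in the order. Cyp3a13 followed at 83.7 ± 9.88, Nr1i2 at 37.8 ± 7.80 and Cyp2b10 at 27.2 ± 16.3 CPM per kb. With FSH, Cyp3a11 at 573 ± 107 CPM per kb (SD, n = 5) overlapped with Cyp2c29 at 496 ± 79.8 CPM per kb and exceeded it in 3 of 5 livers. Por took the fourth place at 244 ± 44.1 CPM per kb. Cyp2b10 stayed last at 6.84 ± 2.11 CPM per kb, now without overlap with Nr1i2 at 30.2 ± 4.03 CPM per kb. The place of Nr1i3 depends on the length used, since with the length of all its annotated exons it came eighth in both groups. With that length Por came sixth in both groups, Cyp3a11 and Cyp2c29 overlapped in saline livers, and Cyp3a41a came first with FSH.

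Por and Cyp2b10 moved in opposite directions between the groups. With group means subtracted, their log2 values correlated at r = 0.80 (rho = 0.65) over the 11 libraries, and over the 6 saline livers alone at r = 0.85 (rho = 0.77). Over the 5 FSH livers, too few for a correlation to be read, r was 0.48 and rho 0.10. Among the 5 FSH livers, mouse 2 had the lowest Cyp2b10 with the second highest Por, and mouse 3 had the second highest Cyp2b10 with the lowest Por. Over the 11 libraries, Nr1i2 correlated with Cyp2b10 at r = 0.69 (rho = 0.57). Saline mice 2 and 4 had both the highest Cyp2b10 (98.0 and 72.4 CPM) and the highest Por of their group (556 and 595 CPM), and FSH mouse 6 had the highest of both in the other group. Cyp2b10 and Cyp3a11, which both fell, had r = -0.32 (rho = -0.35) within the groups. Ranked by r, the lowest values among pairs of members were those of Por with Cyp3a41a (r = -0.33, rho = -0.33) and of Por with Cyp3a11 (r = -0.33, rho = -0.37).

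**Figure D4:**
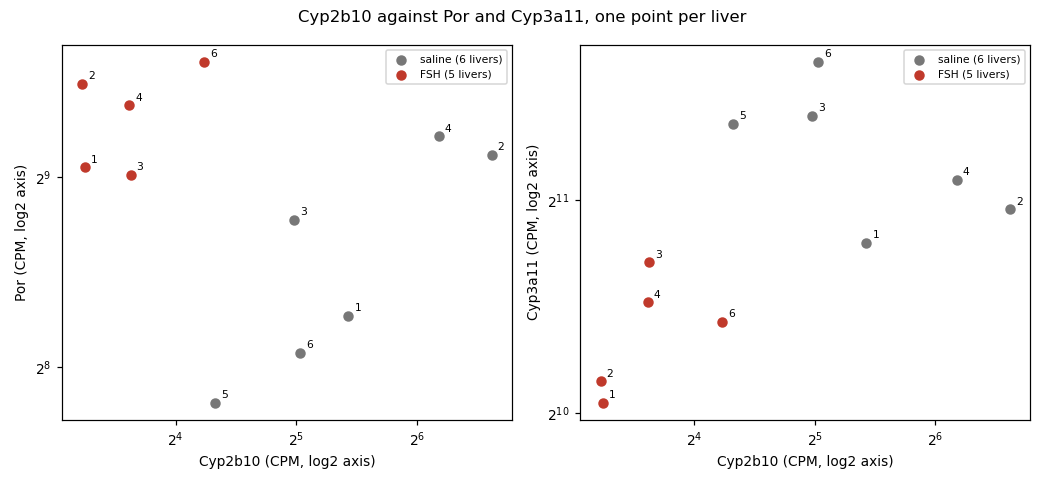
Por (left) and Cyp3a11 (right) against Cyp2b10 in single livers, in CPM on log2 axes, with grey for 6 saline and red for 5 FSH livers and the numbers of the labels beside the points. Among the saline livers Por is higher where Cyp2b10 is higher (r = 0.85), and between the groups the shift is the other way. The 5 FSH livers are too few for an order to be read.

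Other targets that CAR and PXR are known to control did not move one way. Of 26 tested, 7 were called higher and 3 lower, against 6.19% and 4.41% of all genes, with a median log2 fold change of 0.16. Papss2, which makes the sulfate donor for sulfotransferases, rose by 0.77 ± 0.10 on the log2 scale (SE; limma, adjusted p = 0.000285), with 317 to 420.5 CPM in FSH livers and 188 to 268 CPM in saline livers. Thrsp, a lipogenic gene, rose by 1.89 ± 0.30 (adjusted p = 0.00108). Abcb1a, a drug efflux pump, measured 17.9, 20.9, 15.0, 17.1 and 13.1 CPM with FSH and 3.98 to 10.04 CPM with saline, which is higher by 1.32 ± 0.21 on the log2 scale (adjusted p = 0.00136). Cyp2a4, a steroid hydroxylase, rose by 0.99 ± 0.19 (adjusted p = 0.00374). The 3 called lower, named outside the rule after their values had been seen, were Gadd45b, a stress-response gene (-1.76 ± 0.35, adjusted p = 0.00523), Aldh1a1, a retinal dehydrogenase (-0.51 ± 0.14, adjusted p = 0.0275), and Cd36, a fatty acid transporter (-0.79 ± 0.22, adjusted p = 0.0346). The remaining 3 called higher, also outside the rule, were Cyp2a5, Gstm3 and Gstm1, with log2 fold changes of 1.00, 0.84 and 0.46.

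Of 14 dimer partners and coregulators, 1 was higher and 1 lower, or 14.3%, near the 10.6% of all genes tested, with a median of -0.13. Nr0b2, the corepressor SHP, measured 54.5, 33.0, 35.2, 41.8 and 24.9 CPM with FSH and 34.5 to 160.3 CPM with saline, and fell by 1.32 on the log2 scale (SE 0.31; limma, adjusted p = 0.0142). Rxrg, a minor RXR in liver, rose from a mean of 6.73 CPM with saline to 9.72 CPM with FSH, or by 0.50 on the log2 scale (adjusted p = 0.0267). Of 10 genes of the complex that holds CAR in the cytoplasm and of its signaling, 0 were higher and 2 lower, against 4.41% of all genes called lower, with a median of -0.13. Both encode HSP90, the chaperone of that complex: Hsp90aa1 fell by 1.05 (SE 0.17; adjusted p = 0.00155) and Hsp90ab1 fell by 0.60 (SE 0.11; adjusted p = 0.00231) on the log2 scale, each without overlap.

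Of 7 factors known to regulate the receptor genes, 2 were higher and 1 lower, against 10.6% of all genes called, with a median of 0.16. Dbp and Tef, PAR bZIP factors of the clock output that act on CAR and on P450 genes, rose together. Dbp measured 121, 115.5, 56.5, 79.6 and 42.6 CPM in FSH-treated mice 1, 2, 3, 4 and 6 against 3.40 to 4.95 CPM with saline (log2 fold change 4.02 ± 0.23; limma, adjusted p = 1.15e-07). Tef rose by 1.08 ± 0.11 on the log2 scale (adjusted p = 2.07e-05), and the value for Hlf, the remaining factor of that family, was 0.07 ± 0.09 (adjusted p = 0.687). Hnf4a, a hepatocyte factor needed for both receptor genes, fell by 0.44 on the log2 scale (SE 0.13; adjusted p = 0.0369). The log2 fold changes of Nr1i2 and Nr1i3 themselves were -0.31 and -0.15, and neither was called. The paper does not give the time of day at which the livers were taken, so a difference in sampling time between the groups was not tested. The part of these regulators in the levels of Cyp2b10, Cyp3a11 and Por was not tested either.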

How the data were processed

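Total RNA of 11 livers (RNA integrity above the minimum of the study) was used for NEBNext Ultra libraries with paired-end reads. The authors deposited CPM values for 36788 Ensembl gene identifiers, with no scaling between libraries. The submitters' processing notes name FastQC 0.11.2, cutadapt, Trim Galore 0.3.3, STAR, RSEM and the build mm10. The annotation and the use of strand are not given in the sources used here, so near-identical and overlapping genes may share reads.

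Symbols came from GENCODE M21 (GRCm38), which named 35555 identifiers. Every value was a whole multiple (tolerance 0.1) of what 1 read is worth, which gave back reads for 100% of values, and a count of 0 allows up to 3 reads. Genes averaging 0.5 CPM or more entered a limma 3.58.1 fit of log2(CPM + 0.5) (R 4.3.3; eBayes with intensity trend, Benjamini-Hochberg adjustment over 12733 genes), and single genes with a two-sided exact permutation test. edgeR 4.0.16 and DESeq2 1.42.0 on the recovered reads were alternatives, as were voom, other pseudocounts, filters and scaling, no trend, array weights, a replicate block, and leaving out each library. The functions were tested on simulated data. The members and lists were chosen with earlier results of these data known. Named genes were the members, at most the 4 called genes with the smallest p of each list, Dbp, Tef and Hlf, and the 3 closest genes by correlation to each receptor. The cell type markers were fixed lists, and further genes were picked out after their values had been seen: Alas1, Tomm40l, Cyp2c55, Sult2a1, Cyp2d9, the uncalled Cyp3a genes, and Gadd45b, Aldh1a1, Cd36, Cyp2a5, Gstm3 and Gstm1. Upstream sequences came from the RefSeq promoter table (GRCm38.p6), where 10 of 10 members matched. Pairwise identities came from global alignments.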

Additional observations from a re-analysis of the deposited data

Results flagged for a closer look

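Single libraries were looked at in 20 combinations of a member and a group with Dixon's ratio on the log2 scale, which chance alone passes in about 1 of 20. Cyp3a41a stood apart in FSH mouse 2, at 41.5 CPM with a ratio of 0.815, above the 95% critical value for 5 samples. Without this liver its log2 fold change was 0.90 (limma, adjusted p = 0.334) instead of -0.01. Cyp2b13 was lowest in saline mouse 5, at 243 CPM with a ratio of 0.691, above that for 6 samples. Without that liver its log2 fold change was 0.07 (adjusted p = 0.645) instead of 0.17.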

How the results depend on the processing

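Cyp2b10 (log2 fold change -2.03 to -1.56, adjusted p up to 0.0108) and Cyp3a11 (-0.92 to -0.75, adjusted p up to 0.0132) kept their direction and call in all 23 alternatives. Por lost its call in 15, among them no filter on low values (adjusted p = 0.0900), median-of-ratios scaling (0.0573), no intensity trend (0.0680), voom (0.0569) and edgeR (0.0833), and kept its direction. Nr1i2, Nr1i3, Cyp2b9, Cyp2b13 and Cyp3a13 stayed uncalled in the same direction, while Cyp2c29 was called with array weights (0.0479), the replicate block (0.0254) and without FSH mouse 6. Cyp3a41a turned positive with array weights (0.33), the replicate block (0.28), edgeR (0.20) and DESeq2 (0.21), and ran from -0.38 to 0.90 when single libraries were left out, uncalled throughout. The causes were not tested.

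Called members numbered 2 to 4 over the alternatives. Genes at an adjusted p under 0.05 numbered 1350, and 803 (without FSH mouse 1) to 1659 (without FSH mouse 6) when libraries were left out. The largest count over all alternatives was 1892, with array weights. Genes past both thresholds numbered 233 and stayed between 189 and 320. Shared replicate numbers were not used as pairs in the main fit. Livers with the same number correlated in their deviations at -0.09 to 0.39. Of the 5 numbers, 1 (number 2, at 0.39) correlated best with its own number. Such correlations cannot show whether mice with the same number shared a cage or batch. With the replicate block, 1210 genes were called, the Por difference was 0.62 (adjusted p = 0.0563), and saline mouse 5, whose number no FSH mouse has, no longer bore on the comparison. Scaling by median-of-ratios moved the median log2 fold change of all genes from 0.02 to -0.00188. The sample sizes limit what can be seen for members that vary widely, such as Cyp3a41a.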
